A study of Mus musculus with 11 samples.

Results

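Messenger RNA levels of 10 genes of the ATF4 and endoplasmic reticulum (ER) stress responses were examined in mouse livers carrying hepatocellular carcinoma. The genes were taken by symbol from the 43346 rows of the gene table: the transcription factors Atf4, Atf5 and Ddit3, their response genes Trib3 and Chac1, the amino acid synthesis genes Asns, Psat1 and Phgdh, and the ER chaperone genes Hspa5 and Dnajb9. All 10 had a single row and all 10 were among the 17610 genes that passed the filter on low counts. The livers came from FVB/NJ mice whose tumours were induced with MET, the receptor of hepatocyte growth factor, together with β-catenin, the effector of Wnt signalling. All libraries carry anti-PD-1, an antibody against an inhibitory receptor of T cells, as their treatment label. By response label, 6 libraries were from responders, 4 from non-responders and 1 was labelled as without treatment. That last library is called untreated after its response label, although its treatment label names the antibody. The sources used here do not give how MET and β-catenin were expressed, the ages of the mice, or whether each library came from its own mouse. The p-values therefore measure only how far these libraries spread, which may be technical.

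In the integrated stress response, kinases that sense amino acid shortage, misfolded ER proteins, double-stranded RNA or haem shortage phosphorylate the translation factor eIF2. General protein synthesis then slows, while translation of Atf4 mRNA rises, so that Atf4 mRNA alone does not give the level of ATF4 protein. ATF4 switches on genes for amino acid synthesis and uptake, together with the stress genes Ddit3, Trib3 and Chac1. Unfolded ER proteins also act through the sensors IRE1 and ATF6, which raise ER chaperones and the machinery that removes misfolded proteins. The liver makes most plasma proteins, and hepatocytes are rich in ER.

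The start regions of 4 members are shown because they hold a match to an element known for these responses. Windows reaching from 250 bases before to 50 bases after each RefSeq gene start (GRCm38.p6) were searched on both strands for the core of the C/EBP-ATF response element, TGATGNAA, and for the ER stress response element, which is CCAAT and CCACG with 9 bases of any kind between them. The first was found in 3 of the 10 members, Asns, Chac1 and Trib3, and in 4.51% of the 27025 genes with a window (3.97% of all windows). The second was found in Hspa5 alone among the members and in 0.137% of genes. Of the remaining searches, the unfolded protein response element core TGACGTGG (0.714% of genes) and the second ER stress element, ERSE-II (0.0444% of genes), matched 0 members. No match shared bases with another. The capitals mark the match, and each sequence runs 5′ to 3′ on the strand of its gene. For Trib3, whose match starts 14 bases after the start, only 30 bases around it are given. In Asns, Chac1 and Hspa5 the match starts 23, 193 and 65 bases before the start. In Chac1 and Trib3 the element lies on the opposite strand, where it reads TGATGCAA and TGATGTAA.
Asns (chr6:7693210-7693459, minus strand): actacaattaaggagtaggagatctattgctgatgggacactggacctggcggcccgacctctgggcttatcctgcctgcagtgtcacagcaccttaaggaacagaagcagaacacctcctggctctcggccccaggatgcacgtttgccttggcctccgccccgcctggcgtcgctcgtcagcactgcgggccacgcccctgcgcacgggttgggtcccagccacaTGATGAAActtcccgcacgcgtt
Chac1 (chr2:119350992-119351241, plus strand): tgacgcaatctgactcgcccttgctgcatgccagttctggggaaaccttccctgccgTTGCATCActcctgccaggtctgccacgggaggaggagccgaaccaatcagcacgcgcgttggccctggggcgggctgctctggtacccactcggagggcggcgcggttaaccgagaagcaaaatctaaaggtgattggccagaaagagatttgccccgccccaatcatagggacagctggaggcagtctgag
Trib3 (chr2:152344028-152344057, minus strand): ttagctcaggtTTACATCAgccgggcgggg
Hspa5 (chr2:34771840-34772089, plus strand): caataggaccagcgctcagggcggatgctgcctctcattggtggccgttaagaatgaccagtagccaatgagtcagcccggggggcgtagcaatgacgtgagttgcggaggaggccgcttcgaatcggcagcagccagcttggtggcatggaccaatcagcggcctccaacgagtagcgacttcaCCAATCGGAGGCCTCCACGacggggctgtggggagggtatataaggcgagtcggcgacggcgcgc

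Gene counts summed to between 17876515 and 49884800 per library. Values below are CPM, the gene count relative to the library total after TMM scaling, unless stated otherwise. Liver identity was clear, with the albumin gene Alb between 48405 and 92419 CPM in all 11 libraries. Non-responder replicate 1 stood apart by an excess of reads near the 3′ ends of transcripts. Its 3′ index was the log2 ratio of read density in later over earlier exons, set against the median library and taken as the median of 4861 genes. It was 1.23, against -0.0695 to 0.125 elsewhere. Summed levels of 6 fetal liver and tumour markers (Afp, Gpc3, H19, Igf2bp3, Bex1 and Akr1b7) ran from 354 to 901 CPM in non-responders. They were 215 and 237 CPM in responder replicates 4 and 6, from 2.86 to 3.89 CPM in the other 4 responders and 3.09 CPM in the untreated library. In bulk liver, fewer cells that express a gene and less of its RNA per cell cannot be told apart.

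Of the 10 members, Trib3, Chac1 and Asns were lower in responders than in non-responders and 0 were higher (edgeR quasi-likelihood test, Benjamini-Hochberg adjusted p under 0.05 over all 17610 genes). Over all genes tested 5.82% were lower, 4.11% higher and 9.93% called in either direction. The 8 members of the ATF4 arm had log2 fold changes (responder over non-responder) from -3.24 to -0.30, with a median of -1.60. The median over all genes was -0.02. The pair of ER chaperone genes had 0.37 and 0.51. The count of members rested on single libraries. It was 1 without responder replicate 1, 2 or 3 or non-responder replicate 1, and 0 without responder replicate 5 or non-responder replicate 2. It was 2 without responder replicate 6 and 4 without non-responder replicate 3, where Atf5 was added. With the title number of each sample added as a covariate, 0 members passed by edgeR, with 4 at an unadjusted p under 0.05 (6 of 10 without the covariate, against 27.3% of all genes), and 1 gene of all tested passed. Responders carry the title numbers 1, 3, 9, 13, 16 and 29, and non-responders 26, 30, 32 and 37.

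**Figure D1:**
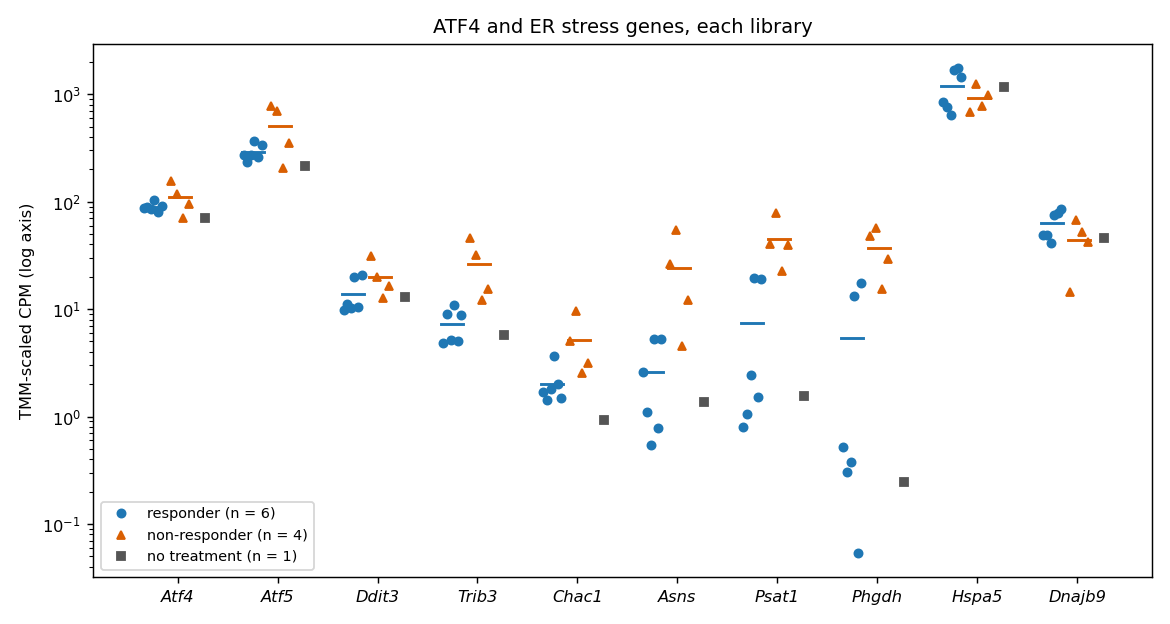
TMM-scaled CPM of the 10 genes in each library (log axis), for 6 responders (circles), 4 non-responders (triangles) and the untreated library (square), with horizontal lines at the group means. Trib3 and Psat1 were lower in every responder than in every non-responder, and Phgdh, Psat1 and Asns spread most among responders.

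Trib3 encodes a pseudokinase that restrains AKT signalling and feeds back on ATF4. The gene (ENSMUSG00000032715, mm10 chromosome 2, 152337422 to 152344032, protein-coding, minus strand) stood at 45.8, 31.8, 12.2 and 15.5 CPM in non-responder replicates 1 to 4. In responders its lowest, median and highest values were 4.84, 7.01 and 10.98 CPM. The groups did not overlap, which was so for 11.3% of all genes tested in either direction and for 5.66% as lower in responders. Mean levels were 7.31 ± 2.64 CPM in responders (SD, n = 6) and 26.3 ± 15.6 in non-responders (SD, n = 4). The log2 fold change of Trib3 was -1.85 ± 0.37 (SE, edgeR adjusted p = 0.0196), or 3.61-fold lower in responders. Leaving out each library in turn, Trib3 passed 8 times of 10, and it missed the threshold without responder replicate 5 or non-responder replicate 2 (adjusted p up to 0.0672). It was the only member called with the 3′ index as a covariate, at -1.43 (edgeR adjusted p = 0.0374).

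Chac1 encodes an enzyme that breaks down glutathione in the cytosol. Its gene (ENSMUSG00000027313, chromosome 2, 119351229 to 119354381, plus strand) stood at 5.09, 9.62, 2.56 and 3.14 CPM in non-responder replicates 1 to 4. Responders had 1.42 CPM at the lowest, 1.75 at the median and 3.70 at the highest, in replicate 4. That replicate lay above non-responder replicates 3 and 4, so the groups overlapped, and the next responder had 2.02 CPM. The log2 fold change of Chac1 was -1.35 ± 0.38 (SE, edgeR adjusted p = 0.0458), or 2.55-fold lower. Leaving out each library in turn, Chac1 passed only when responder replicate 4, non-responder replicate 3 or non-responder replicate 4 was absent, with edgeR adjusted p up to 0.178 for the rest. It also missed the threshold with sums of exon counts, by limma-voom, with either covariate and without a low-count filter.

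Asns encodes asparagine synthetase, which makes asparagine from aspartate with glutamine as the nitrogen donor. The gene (ENSMUSG00000029752, chromosome 6, 7675169 to 7693254, minus strand) stood at 26.4, 53.9, 4.49 and 12.2 CPM in non-responder replicates 1 to 4. Among responders the lowest value was 0.546 CPM, the median 1.87 and the highest 5.30. Replicates 4 and 6 of the responders, at 5.30 and 5.28 CPM, lay above non-responder replicate 3, and the other 4 responders lay below every non-responder. The 29 to 65 reads of Asns in responder replicates 1, 2 and 5, and 23 in replicate 3, limit the precision of those values. Its difference of -3.24 ± 0.78 on the log2 scale (SE, edgeR adjusted p = 0.0318) was a 9.45-fold lower level in responders. Leaving out each library in turn, Asns passed 4 times of 10, and it missed when any of responder replicates 1, 2, 3 or 5, or non-responder replicate 1 or 2, was absent (edgeR adjusted p up to 0.101).

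Psat1 and Phgdh encode the enzymes of successive steps in serine synthesis from a glycolytic intermediate, with Phgdh acting first. Psat1 (ENSMUSG00000024640, chromosome 19, 15904678 to 15947337, minus strand) stood at 40.3, 78.8, 22.7 and 39.3 CPM in non-responder replicates 1 to 4. Responder replicates 4 and 6 had 19.3 and 19.1 CPM, while the other 4 responders had between 0.806 and 2.42 CPM. Every responder lay below every non-responder. Phgdh (ENSMUSG00000053398, chromosome 3, 98313170 to 98339990, minus strand) stood at 47.7, 56.9, 15.5 and 29.2 CPM in non-responders. Responder replicates 4 and 6 had 13.2 and 17.6 CPM, and the other 4 had between 0.0540 and 0.524 CPM, on 2 to 16 reads each. Replicate 6 lay above non-responder replicate 3, so the groups overlapped for Phgdh.

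Neither of these serine synthesis genes passed by edgeR. Psat1 had a log2 fold change of -2.63 ± 0.92 and Phgdh one of -2.82 ± 1.21 (SE, edgeR adjusted p = 0.0952 and 0.164). The SD among responders exceeded their mean for both, at 7.37 ± 9.19 CPM for Psat1 and 5.34 ± 7.91 for Phgdh (SD, n = 6). By limma-voom the log2 fold changes were -3.68 for Psat1 and -5.18 for Phgdh, and both passed (adjusted p = 0.0153 and 0.0171). DESeq2 called Psat1 (adjusted p = 0.0409) and not Phgdh (0.131). Two-sided exact permutation tests of mean log2 CPM over 210 splits gave p = 0.00952 for Psat1 and 0.0143 for Phgdh, without adjustment over genes, where the smallest p that the design allows is 0.00476. Adding the title number to the fit, the edgeR values shrank to -0.82 and -1.06 (adjusted p = 0.836 and 0.834).

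Levels of Psat1, Phgdh and Asns split the responders as the fetal liver and tumour markers did. They followed these markers only in part among non-responders. The responders with the high marker sums, replicates 4 and 6, were those with the high Psat1, Phgdh and Asns. Among the other responders the order differed by gene. Replicate 3 had the highest marker sum of these, 3.89 CPM, with the highest Psat1 and the lowest Asns, 2.42 and 0.546 CPM. Phgdh was highest there in replicate 1, at 0.524 CPM. Non-responder replicate 2 had the highest marker sum and the highest level of all 3 genes. Non-responder replicate 1 had the lowest marker sum of its group, 354 CPM, with the second-highest level of all 3 genes. Replicate 4, with 598 CPM of markers, lay below it for each, and replicate 3, with 367 CPM, had the lowest levels. Of the 6 markers, Bex1 and Akr1b7 passed as lower in responders and 0 passed as higher, with a median log2 fold change of -3.23. Afp, the fetal serum protein gene, had 122 and 99.8 CPM in responder replicates 4 and 6 and at most 2.28 in the other responders, against 116 to 381 CPM in non-responders. H19 had no read in responder replicate 1, and Bex1 had none in responder replicates 4 and 5. The part of these markers in the differences of Psat1, Phgdh and Asns was not tested.

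**Figure D2:**
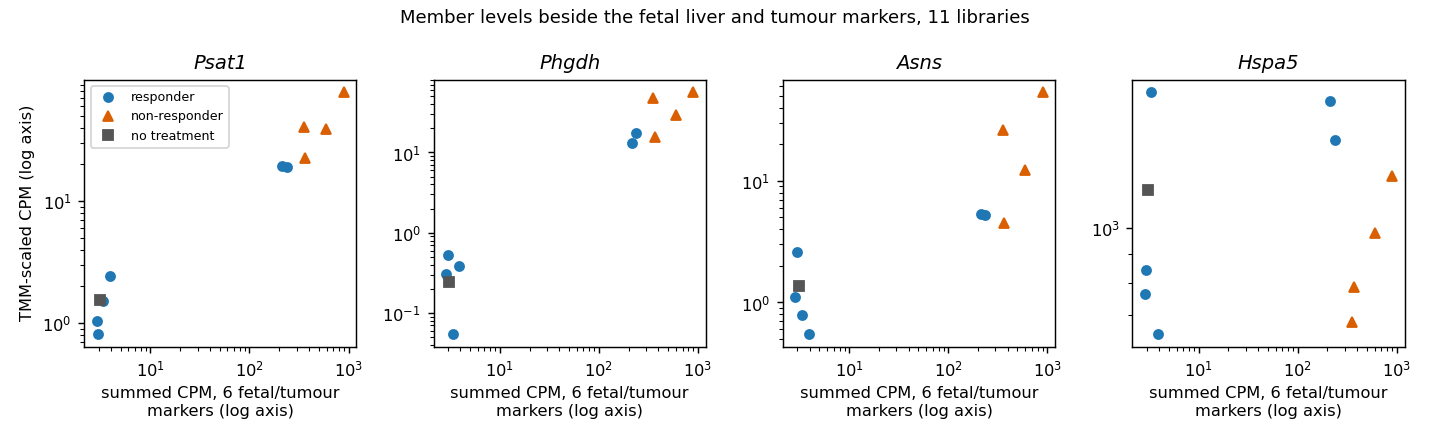
TMM-scaled CPM of Psat1, Phgdh, Asns and Hspa5 against the summed CPM of 6 fetal liver and tumour markers, 1 point for each of 11 libraries, both axes logarithmic. Responder replicates 4 and 6 (215 and 237 CPM of markers) lie near the non-responders for the first 3 genes, while Hspa5 is highest in responder replicate 5, where the markers sum to 3.35 CPM.

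The transcription factor genes had fold changes below 0, and none of the 3 passed. Atf4 (ENSMUSG00000042406, chromosome 15, 80255184 to 80257540, plus strand), the central factor of the response, stood at 157, 119, 70.3 and 94.8 CPM in non-responder replicates 1 to 4. In responders it ran from 80.8 through a median of 87.9 to 104 CPM, inside the range of the non-responders. Its log2 fold change was -0.30 ± 0.18 (SE, edgeR adjusted p = 0.321), and -0.08 when non-responder replicate 1 was left out. Responders varied little in Atf4, with an SD of 7.95 CPM around a mean of 89.4 (n = 6).

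Atf5, a factor related to ATF4 that is tied to mitochondrial stress, was the more abundant and more variable of the pair. The gene (ENSMUSG00000038539, chromosome 7, 44812257 to 44816658, minus strand) stood at 773, 699, 204 and 350 CPM in non-responder replicates 1 to 4. Responders ran from 234 through a median of 271 to 365 CPM, and non-responder replicate 3 lay below all of them. The log2 fold change of Atf5 was -0.81 ± 0.31 (SE, edgeR adjusted p = 0.118). Without non-responder replicate 3 it was -1.07 and passed (adjusted p = 0.0223).

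Ddit3 encodes CHOP, the factor that links prolonged stress to cell death. The gene (ENSMUSG00000025408, chromosome 10, 127290774 to 127296288, plus strand) stood at 31.1, 19.7, 12.7 and 16.6 CPM in non-responder replicates 1 to 4. In responders its lowest, median and highest values were 9.91, 10.8 and 20.8 CPM. Responder replicates 4 and 6, at 19.9 and 20.8 CPM, lay above 3 of the 4 non-responders, and the other 4 responders lay below all of them. Ddit3 differed by -0.54 ± 0.29 on the log2 scale (SE, edgeR adjusted p = 0.257), and by -0.25 when non-responder replicate 1 was left out. It shares 81 exon bases, 4.73% of its total, with neighbours on the other strand, among them Mars, and the strand setting of the counting is not given. GENCODE M21 holds 1 other entry named Ddit3, which this overlap leaves out. Atf5 shares 4.11% with neighbours, Dnajb9 0.549% and the other members none.

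The ER chaperone genes did not pass, and their values lay in the other direction from the ATF4 arm. Hspa5 encodes BiP, the main ER chaperone of its family and the partner that keeps the stress sensors inactive. It (ENSMUSG00000026864, chromosome 2, 34771970 to 34777547, plus strand) stood at 680, 1239, 785 and 980 CPM in non-responder replicates 1 to 4. Responder replicates 1, 2 and 3 had 841, 763 and 647 CPM, and replicates 4, 5 and 6 had 1682, 1749 and 1437. The latter 3 lay above every non-responder and the former 3 within or below their range. The log2 fold change of Hspa5 was 0.37 ± 0.31 (SE, edgeR adjusted p = 0.490).

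Dnajb9 encodes ERdj4, a co-chaperone of BiP that restrains the sensor IRE1. The gene (ENSMUSG00000014905, chromosome 12, 44205897 to 44210068, minus strand) stood at 14.5, 67.9, 52.6 and 42.3 CPM in non-responder replicates 1 to 4. The lowest responder had 41.4 CPM, the median 62.4 and the highest 85.5. Replicates 4, 5 and 6 of the responders, at 76.0 to 85.5 CPM, again lay above every non-responder. Dnajb9 differed by 0.51 ± 0.36 on the log2 scale (SE, edgeR adjusted p = 0.396), and by 0.22 when non-responder replicate 1, the lowest library, was left out. Summed fetal and tumour markers did not follow this split of the responders, since replicate 5 had 3.35 CPM of them.

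**Figure D3:**
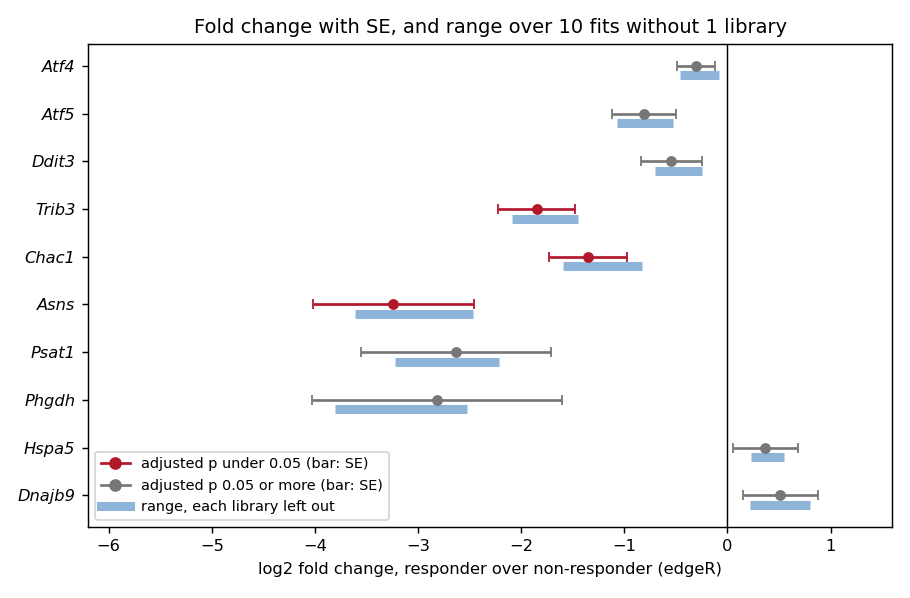
Log2 fold change of each member, responder over non-responder (points; bars give the SE), with the range over the 10 fits that left out 1 library each (blue bands). The 8 genes of the ATF4 arm lie below 0 in every fit drawn and Hspa5 and Dnajb9 above 0, while only Trib3, Chac1 and Asns passed the threshold in the fit with all libraries.

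The highest and lowest libraries of each group were compared across members. Among responders, replicate 4 was the highest for 6 members (Atf4, Atf5, Trib3, Chac1, Asns and Psat1) and replicate 6 for 3 (Ddit3, Phgdh and Dnajb9). Hspa5 was highest in replicate 5. The lowest responder varied more, falling on replicate 1 for 3 members, replicate 2 for 2, replicate 3 for 3 and replicate 5 for 2. Among non-responders, replicate 3 was the lowest for all 8 genes of the ATF4 arm, while replicate 1 was the lowest for Hspa5 and Dnajb9. Replicate 1 was the highest non-responder for Atf4, Atf5, Ddit3 and Trib3, and replicate 2 for the other 6 members.

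Deviations of log2 CPM from the group mean were compared for all 45 pairs of members over the 10 treated libraries. For Trib3, Asns, Psat1, Phgdh, Ddit3, Hspa5 and Dnajb9 the responders fell into separate clusters, and no pooled coefficient is given for their pairs. The p-values come from permutation within groups, with Benjamini-Hochberg adjustment over the 45 pairs, and 0 pairs passed by Spearman's rho (lowest adjusted p = 0.0567). Atf4 and Atf5 had r = 0.94 and rho = 0.90 (permutation p = 0.00196 and 0.0219, adjusted 0.0181 and 0.0704). Without the 2 libraries farthest from the Atf4 median, r was 0.85 for this pair.

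Genes nearest in pattern were sought for Hspa5 and Asns. Over the same 10 libraries and 11413 genes, the 5 genes whose deviations were most like those of Hspa5 were Hyou1, Pdia4, Lrrc59, Hsp90b1 and Srprb, ranked by Pearson's r. Hyou1, Pdia4 and Hsp90b1 encode ER chaperones or folding enzymes. Hyou1 showed the same split of responders, with 222, 207 and 181 CPM in replicates 1 to 3 and 551, 564 and 456 in replicates 4 to 6. The genes most like Asns were Ocstamp, Dtx4, Vps4a, Kazald1 and Tanc1 by the same ranking, none of them from the lists used here. Ocstamp and Dtx4 passed as lower in responders, with log2 fold changes of -2.52 and -0.74 (edgeR adjusted p = 0.0238 and 0.0403). Since the responders fell into clusters for Hspa5 and for Asns, the ranking is a description, with no coefficient and no test.

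Levels were compared between genes as CPM per kilobase of the gene length listed with the counts. In responders the order of geometric means was Hspa5 at 260, Atf5 at 143, Atf4 at 51.7, Dnajb9 at 32.6, Ddit3 at 7.60, Trib3 at 3.26, Chac1 at 1.16, Psat1 at 0.759, Asns at 0.661 and Phgdh at 0.384 CPM per kilobase. The ranges of Hspa5 and Atf5 overlapped, and so did those of neighbours among the last 4 genes, Chac1, Psat1, Asns and Phgdh. The other neighbours, Trib3 and Chac1 among them, did not overlap among the 6 responders. In non-responders Phgdh took the fifth place rather than the last, at 13.4 CPM per kilobase, between Dnajb9 at 20.6 and Ddit3 at 11.1. Atf5 and Hspa5 led there at 222 and 212, and neighbouring ranges overlapped throughout except that of Atf4, which met neither that of Hspa5 nor that of Dnajb9. The authors' RPKM values gave the same order in every label.

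The untreated library lay within or below the responder range for all 10 members. It had 0.245 CPM of Phgdh, 1.55 of Psat1, 1.37 of Asns and 5.77 of Trib3, each within the responder range and below every non-responder. Chac1 at 0.920 CPM lay below all treated libraries. Atf4 at 70.9 and Atf5 at 217 CPM lay below the responders and within the non-responders. Hspa5 at 1171, Dnajb9 at 45.6 and Ddit3 at 13.03 CPM lay within both ranges. In all, 7 of 10 members were within the responder range and 5 were below the non-responder range, against 74.8% and 25.9% of all genes tested. The other 5 lay within the non-responder range, against 48.4% of all genes. With 1 library there is no test.

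Read density along the transcripts was examined because of the 3′ shift in non-responder replicate 1. In that library the ratio of later to earlier exons was the highest of all 11 libraries for all 10 members. For Hspa5 the log2 ratio was 0.71, against -1.28 to -1.03 in the rest, and for Atf4 it was 1.52 against 0.41 to 0.59. Asns had 1.81 against -0.21 to 0.92. The gap was narrow for Chac1, at 0.729 against at most 0.723 elsewhere, and for Ddit3, at 0.298 against at most 0.235. Without this library Trib3 still passed, at -1.44 (edgeR adjusted p = 0.0384), while Chac1 and Asns missed the threshold with nearly the same fold changes, -1.36 and -3.20 (adjusted p = 0.0727 and 0.0575).

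**Figure D4:**
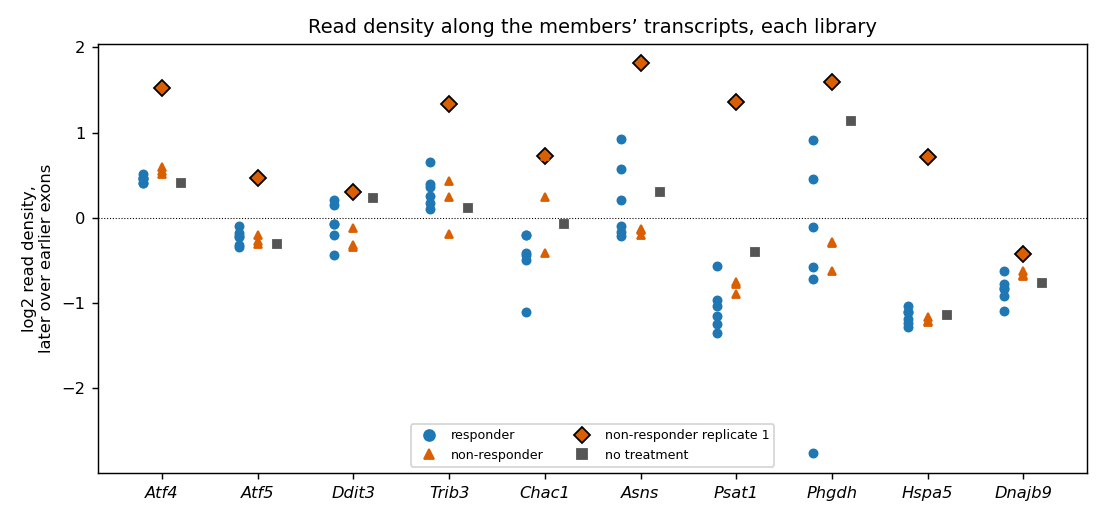
Log2 ratio of read density in the later over the earlier exons of the most counted transcript of each member, 1 point per library. Non-responder replicate 1 (diamonds with black edges) has the highest ratio for all 10 genes, and the low value of Phgdh in a responder comes from replicate 5, with 2 gene counts.

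Other genes of the ATF4 response, taken from lists that do not hold the members, were lower in responders in part. Of 18 measured response genes 6 were lower and 1 higher, with a median log2 fold change of -0.85. Among all genes tested, 5.82% were lower and 4.11% higher, and these shares stand beside this list and those that follow. The lists were chosen with earlier results of these data known. Aldh18a1, which starts proline synthesis from glutamate, stood at 2.88 ± 1.25 CPM in responders (SD, n = 6) and 10.2 ± 3.54 in non-responders (SD, n = 4), with -1.83 ± 0.32 on the log2 scale (SE, edgeR adjusted p = 0.0149). Pck2, the mitochondrial PEP carboxykinase, had -2.20 and the stress hormone gene Gdf15 -1.86 (edgeR adjusted p = 0.0237 and 0.0243). Vldlr, a lipoprotein receptor gene that ATF4 is known to raise, was the member of the list that was higher, at 0.85.

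Genes of serine and folate metabolism differed in both directions. Of 8, 3 were lower and 2 higher, with a median of -0.47. The lower genes were Psph, the last step of serine synthesis, at -1.29, and the mitochondrial folate enzymes Mthfd2 at -1.73 and Aldh1l2 at -2.50. The higher genes were the cytosolic enzymes Mthfd1, at 226 ± 34.9 CPM in responders (SD, n = 6) against 140.4 ± 23.5 (SD, n = 4), and Aldh1l1, with log2 fold changes of 0.68 and 1.13. Psph, Mthfd2 and Mthfd1 had edgeR adjusted p = 0.0215, 0.0296 and 0.0256.

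Of 12 amino acid transporter genes 6 were lower and 0 higher, with a median of -0.80. Slc43a1, a carrier of large neutral amino acids, stood at 6.26 ± 2.39 CPM in responders (SD, n = 6) and 18.4 ± 3.53 in non-responders (SD, n = 4), with -1.56 ± 0.27 on the log2 scale (SE, edgeR adjusted p = 0.0149). Slc7a5, the light chain of another such carrier, had -1.04 and the neutral amino acid carrier gene Slc1a4 -2.37. Of 20 cytosolic aminoacyl-tRNA synthetase genes, which charge tRNAs with amino acids, 3 were lower and 0 higher, with a median of -0.13. They were Cars, Gars and Sars, at -0.70, -0.65 and -0.41 (edgeR adjusted p = 0.0193, 0.0239 and 0.0357).

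Upstream and ER genes gave few calls. Over all genes tested, 27.3% had an unadjusted p under 0.05 by edgeR and 8475 of 17610 had log2 fold changes above 0. Of 13 genes for eIF2, its kinases, its exchange factor and its phosphatase subunits 0 passed (3 at an unadjusted p under 0.05), with a median of -0.11. The smallest p was that of Eif2ak2, the kinase that senses double-stranded RNA and an interferon response gene, at -0.48 ± 0.16 (SE, edgeR adjusted p = 0.0763). Leaving out non-responder replicate 1, Eif2ak2 passed at -0.61 (edgeR adjusted p = 0.0278). Of 8 ER stress sensors and factors 0 passed (1 at an unadjusted p under 0.05), with a median of 0.07, and Creb3l3, a liver factor of that kind, had 0.48 ± 0.16 (SE, edgeR adjusted p = 0.0778). Of 18 ER chaperone and folding genes 1 was lower, the disulphide reductase gene Dnajc10 at -0.67 (edgeR adjusted p = 0.0314), and 13 had values above 0. Of 21 genes of ER-associated degradation and translocation 0 passed (4 at an unadjusted p under 0.05), 15 had values above 0, and the smallest p was that of Derl2 at 0.31 ± 0.09 (SE, edgeR adjusted p = 0.0590). DESeq2 called Creb3l3 and Derl2 (adjusted p = 0.0230 and 0.00390).

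The highest and the lowest responder were also counted for the genes of the ER lists. Such counts do not show whether replicates 1 to 3 stood apart from replicates 4 to 6, as they did for Hspa5. Responder replicate 3 was the lowest responder for 16 of 18 folding genes and 18 of 21 degradation and translocation genes. Replicates 4, 5 and 6 were the highest responder for 9, 7 and 1 folding genes and for 7, 6 and 7 of the degradation and translocation genes. High counts for these replicates were not confined to the ER. They were 6, 7 and 5 for the 20 tRNA synthetase genes and 5, 3 and 3 for the 13 eIF2 genes. For the 12 transporter genes they were 5, 0 and 3. Replicate 3 was the lowest responder for 4 tRNA synthetase, 6 eIF2 and 1 transporter genes. The share over all genes was not counted.

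**Figure D5:**
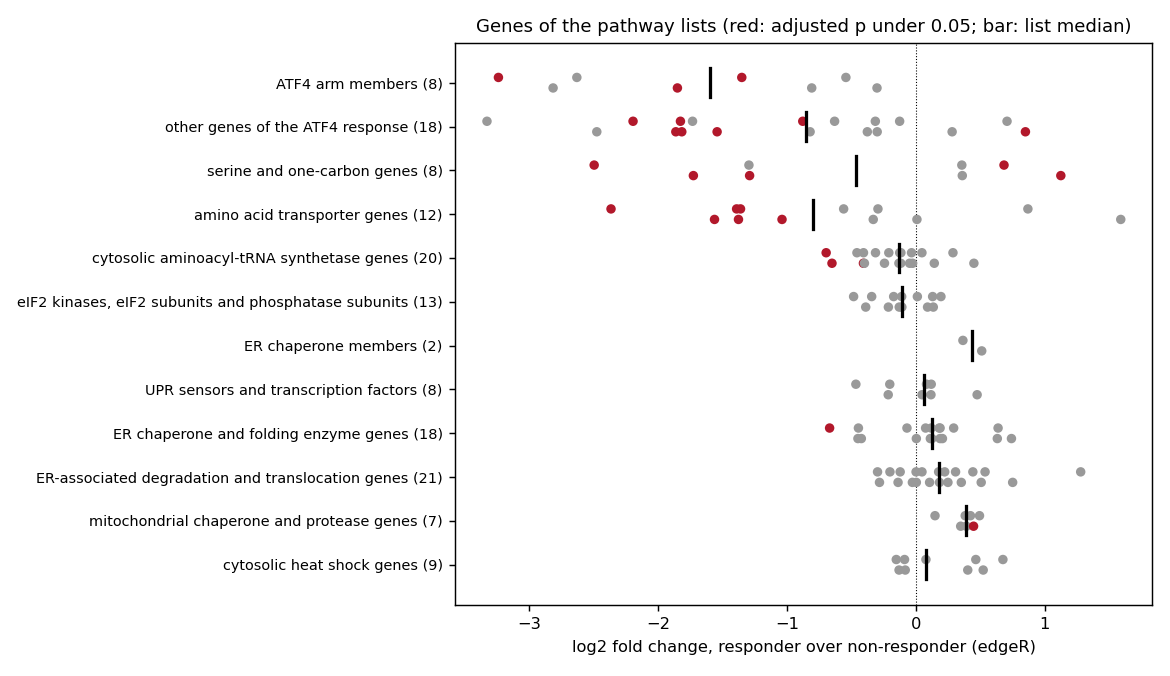
Log2 fold change, responder over non-responder, of each measured gene of 12 lists (points; red for adjusted p under 0.05) with the list median (bar) and the number of measured genes in brackets. Medians of the ATF4 arm, the other ATF4 response genes and the transporters lie at -1.60, -0.85 and -0.80, while those of the ER lists lie between 0.07 and 0.44.

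These list counts rested on the same libraries as the members. Over all lists without the members, 19 of 134 genes were lower and 4 higher (5.82% and 4.11% over all genes tested), with a median of -0.04. Without non-responder replicate 2, 0 were lower and 0 higher, and without responder replicates 1, 2 and 5 in turn 2 were lower and 0 higher each time. Without responder replicate 3, 9 were lower, and without non-responder replicate 4, 2 were higher. All 14 named list genes that had passed missed the threshold without non-responder replicate 2 (edgeR adjusted p from 0.0557 to 0.110) and with the title number as a covariate.

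Markers of other cell types were summed in each library. Hepatocyte markers (8 genes, 3 higher and 1 lower in responders) came to between 64841 and 79135 CPM in responders and 91949 and 120218 in non-responders, of which Alb was the largest share. Cholangiocyte markers (5 genes, 0 called) came to 17.4 to 25.8 and 25.6 to 69.8 CPM, and T and NK cell markers (6 genes, 1 lower) to 3.24 to 6.43 and 3.36 to 12.8 CPM. Stellate (7 genes, 0 called), endothelial (6 genes, 1 lower) and macrophage markers (7 genes, 0 called) overlapped between groups, at 107 to 318, 116 to 355 and 62.6 to 490 CPM over the treated libraries. Non-responder replicate 1, the highest library for Atf4, Atf5, Ddit3 and Trib3, stood apart in these sums too. It had 318 CPM of stellate markers against 107 to 159 in the other non-responders, 116 of endothelial markers against 278 to 311, and 62.6 of macrophage markers against 334 to 362. B and plasma cell markers, whose cells are rich in ER, came to 154 to 217 CPM with 0 of 6 measured genes called, and Sdc1 alone made up 149.6 to 213 CPM of these sums. Igj, the immunoglobulin joining chain gene, had 11.4 and 4.37 CPM in responder replicates 4 and 6, 0.886 to 1.45 in the other responders and 0.738 to 4.16 in non-responders. Neutrophil markers stayed at or below 3.58 CPM. Exocrine pancreas markers came to 0.918 to 1.37 CPM in responders and 1.74 to 2.34 in non-responders. Of their 5 genes Cpa1, Ctrb1, Pnlip and Cel had no read in at least 1 treated library. Cela2a made up most of these sums, at 0.868 to 1.37 CPM in responders and 1.44 to 2.29 in non-responders. It was the 1 gene of the list that was tested, and it was called lower. The part of these markers in the members' levels was not tested.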

How the data were processed

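Per the labels' protocols, TRIzol was used on the livers and sequencing libraries followed an Illumina TruSeq protocol. The submitters' processing notes name FastQC and mm10. A small RNA kit is named for indexing. The aligner, counting tool, annotation and strand setting of the counts are not stated in the labels or headers. The deposited tables hold raw counts per gene and per exon and RPKM values, per the file headers. RPKM as deposited by the authors served only to check the order of levels.

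The 6 responder libraries were tested against the 4 non-responder libraries by edgeR 4.0.16 under R 4.3.3 (filterByExpr, TMM, robust quasi-likelihood F test, Benjamini-Hochberg over all genes, threshold 0.05); the SE is the log2 fold change divided by the root of F. Printed CPM use TMM factors over all 11 libraries, and log2 CPM adds 0.5 to each count. Alternatives were other scalings and filters, DESeq2 1.42.0, limma 3.58.1 voom, covariates, exon sums and each library left out. Every pair of libraries of a group differed by at least 4.28 times counting noise. Pairs with non-responder replicate 1 differed by 30.9 to 39.9 times, and the other non-responder pairs by 5.48 to 11.1 times. Replicate numbers follow accession order and pair nothing. On simulated counts for this comparison (17369 genes) the edgeR step called 2 of 55 genes changed 1.5-fold, 28 of 70 changed 2-fold, 57 of 65 changed 4-fold and 5 of 17179 unchanged genes. The simulation held no library set apart as non-responder replicate 1 was.

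Named are all members, up to 3 called genes with the smallest p of each list or else the 1 gene with the smallest p, and the 5 genes nearest in pattern to Asns and Hspa5. Other genes named, Aldh1l2, Aldh1l1 and Vldlr and the markers, were chosen after their values were seen or to describe a list. The members and lists were chosen with earlier results of these data known. Promoter windows are from RefSeq (GRCm38.p6), which held all 10 members, and strands and exon overlaps from GENCODE M21.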

Additional observations from a re-analysis of the deposited data

Results flagged for a closer look

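Chac1 in responder replicate 4, at 3.697 CPM, lay far above the other 5 responders, whose highest value was 2.02 CPM. It was the 1 sample so marked among 20 groups of libraries examined, where chance marks about 1 in 20.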

How the results depend on the processing

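The sign of each member's log2 fold change was the same in all 220 alternative fits (22 for each of 10 members), of which 24 lost and 6 gained the adjusted threshold; the 18 named list genes kept their sign in 396, with 78 losses and 9 gains. The count of members lower in responders, 3 in the main comparison, was 1 without a low-count filter, 5 by limma-voom with quality weights, 0 with the title number as a covariate and 1 with that 3′ index as a covariate, the last chosen after seeing the data. Leaving out single libraries gave 0 to 4. Over all genes, 1025 lower and 723 higher became 1661 and 1396 by DESeq2, 2021 and 1621 by limma-voom with quality weights, 1 and 0 with the title number, and 41 to 1158 and 38 to 836 without single libraries. Genes of the pathway lists, 19 lower and 4 higher, became 30 and 12 with quality weights, 15 higher by DESeq2, 0 and 0 with the title number, and 0 to 24 and 0 to 6 without single libraries. The cause was not tested. The 12 member pairs passing by Pearson's r became 0 by Spearman's rho. All of the 12 except Atf4 with Atf5 hold a gene whose responders fell into clusters. No paired analysis was possible because the labels give the groups no shared replicate numbers. Depth limits Phgdh, with 2 to 16 reads in 4 responders, and intervals of counting error do not cover the spread between livers.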

Other observations

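Stress genes outside the ER lay mostly near or above 0. Among all genes tested, 8475 of 17610 lay above 0 and 27.3% had an unadjusted p under 0.05 by edgeR. All 7 mitochondrial chaperone and protease genes had log2 fold changes above 0, between 0.15 and 0.49, with a median of 0.39, and 1 of them passed. That gene was Lonp1, the main protease of the mitochondrial matrix, at 148 ± 9.27 CPM in responders (SD, n = 6) against 109 ± 10.9 in non-responders (SD, n = 4), with 0.45 ± 0.11 on the log2 scale (SE, edgeR adjusted p = 0.0278). Without responder replicates 1, 2 or 5 or non-responder replicate 2 Lonp1 missed the threshold, with adjusted p up to 0.0762. Of 9 cytosolic heat shock genes 0 passed by edgeR (1 at an unadjusted p under 0.05), with a median of 0.08, and the smallest p was that of the co-chaperone gene Bag3 at 0.47 ± 0.20 (SE, edgeR adjusted p = 0.159).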
